A study of Arabidopsis thaliana with 15 samples.

Results

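The circadian clock core genes are 10 of the 33323 genes in the deposited table, taken by identifier: LHY (AT1G01060), CCA1 (AT2G46830), TOC1 (AT5G61380), PRR5 (AT5G24470), PRR7 (AT5G02810), PRR9 (AT2G46790), GI (AT1G22770), ELF3 (AT2G25930), ELF4 (AT2G40080) and LUX (AT3G46640). Their transcripts were measured by RNA sequencing in unopened flower buds of 5-week-old Arabidopsis thaliana, all in the Col0 background and grown in long days without treatment. Each of 5 genotypes had 3 libraries: ref6-3 and ref6C, which are single mutants, a double mutant named elf6-3ref6C, a triple mutant named elf6-3ref6Cjmj13G, and wild type (WT). The double mutant carries ref6C, and the triple mutant carries elf6-3 as well as ref6C. No elf6-3 or jmj13G single mutant is among the samples, so those alleles were seen only on top of others. REF6 and ELF6 are JmjC-domain demethylases that act on lysine 27 of histone H3, a site whose methylation by the Polycomb system keeps genes silent.

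The plant clock is a set of transcription factors that repress one another around the day. CCA1 and LHY are MYB-related repressors whose transcripts peak around dawn, PRR9, PRR7 and PRR5 are pseudo-response regulators that follow through the day, and TOC1 (also PRR1) represses CCA1 and LHY in the evening. ELF3, ELF4 and LUX form the evening complex, which represses PRR9 and other genes at night, and GI stabilises the F-box protein ZTL and links the clock to flowering time. These transcripts cycle with a daily rhythm, and the labels give no hour of collection, so genotype and hour of collection cannot be told apart from them.

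CCA1 and LHY bind the evening element and related sites, and the pseudo-response regulators act at G-box-containing promoters, so the windows before the gene starts are shown with these motifs. Each sequence below is the 300 bases upstream of the annotated gene start in the TAIR10.1 reference from RefSeq, written 5′ to 3′ on the gene's strand, for PRR9, LHY, CCA1 and TOC1, 4 of the 5 core genes with the widest spans between genotypes, and for GI, which had the narrowest span. Capitals mark matches, on either strand, to the evening element core AATATCT (and its long form AAAATATCT), the G-box CACGTG, the CCA1-binding site AAAAATCT, or the spellings CTCTGCTC, CTCTGCTT, CTCTGTTC and CTCTGTTT of the element read by the REF6 zinc fingers.
PRR9 (chr2:19232307-19232606, plus strand): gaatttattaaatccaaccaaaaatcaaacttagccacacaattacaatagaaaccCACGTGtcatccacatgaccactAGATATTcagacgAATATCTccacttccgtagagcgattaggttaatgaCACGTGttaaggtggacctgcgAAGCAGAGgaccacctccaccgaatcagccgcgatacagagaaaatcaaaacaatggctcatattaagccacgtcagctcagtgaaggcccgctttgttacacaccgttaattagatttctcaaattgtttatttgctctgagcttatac
LHY (chr1:37872-38171, minus strand): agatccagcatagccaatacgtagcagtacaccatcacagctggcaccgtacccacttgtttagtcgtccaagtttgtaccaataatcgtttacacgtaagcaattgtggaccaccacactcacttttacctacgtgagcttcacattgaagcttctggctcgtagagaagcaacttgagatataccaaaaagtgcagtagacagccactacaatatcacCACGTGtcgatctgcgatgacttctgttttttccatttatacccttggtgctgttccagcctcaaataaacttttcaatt
CCA1 (chr2:19245291-19245590, plus strand): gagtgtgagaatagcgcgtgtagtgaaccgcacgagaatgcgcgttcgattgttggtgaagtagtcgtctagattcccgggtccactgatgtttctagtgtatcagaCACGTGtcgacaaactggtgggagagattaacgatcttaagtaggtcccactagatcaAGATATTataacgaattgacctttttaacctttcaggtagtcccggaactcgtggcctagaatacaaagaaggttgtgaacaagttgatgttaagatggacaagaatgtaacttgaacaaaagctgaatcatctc
TOC1 (chr5:24674663-24674962, plus strand): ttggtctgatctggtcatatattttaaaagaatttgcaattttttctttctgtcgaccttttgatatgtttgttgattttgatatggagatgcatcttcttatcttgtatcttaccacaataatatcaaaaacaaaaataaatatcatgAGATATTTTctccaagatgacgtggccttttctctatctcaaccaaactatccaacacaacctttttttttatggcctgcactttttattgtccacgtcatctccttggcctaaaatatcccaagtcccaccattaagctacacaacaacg
GI (chr1:8061451-8061750, plus strand): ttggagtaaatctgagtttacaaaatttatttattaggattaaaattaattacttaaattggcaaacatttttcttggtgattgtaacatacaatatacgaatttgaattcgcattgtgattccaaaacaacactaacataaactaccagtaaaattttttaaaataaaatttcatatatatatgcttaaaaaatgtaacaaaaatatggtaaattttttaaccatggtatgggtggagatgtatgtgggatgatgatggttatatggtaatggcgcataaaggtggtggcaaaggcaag
The evening element core stood in 6 of the 9 core gene windows searched and in 11.2% of all 37897 windows of that length. The long evening element stood in the windows of TOC1, PRR5 and LUX, and in 2.51% of all windows. A G-box stood in the windows of LHY, CCA1, PRR7, PRR9 and LUX, and in 5.98% of all windows. The CCA1-binding site was matched in the PRR5 window alone among the 9, and in 7.33% of all windows. A REF6 spelling was matched in the PRR9 window alone among the 9, 150 to 143 bases upstream on the opposite strand, and in 7.05% of all windows. The GI and ELF3 windows held no match. A match to letters is a description and not a binding site. PRR9 and CCA1 are also close neighbours: 10411 bases and 3 annotated genes separate them on chromosome 2.

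Total counts lay between 26009591 and 34140165 per library, and all 10 core genes passed the filter on low counts. Levels below are CPM (counts scaled to library size with TMM), and a call means that edgeR's quasi-likelihood test over 22411 genes gave a p below 0.05 after Benjamini-Hochberg adjustment. Whether the libraries of a genotype came from separate plants is not in the labels, and p-values then reflect only the spread between libraries, which may be technical. The common biological coefficient of variation that edgeR fitted over all genes, which leaves out counting noise, was 2.51%. Relative to the mean, the spread between libraries of a genotype differed among the core genes. It ran from 85.8 ± 0.31 CPM for PRR5 in ref6-3 to 8.17 ± 1.5 CPM for PRR9 in the triple mutant (SD, n = 3 each). One library stood apart: ref6C replicate 3 had counts in 29547 genes, against 25055 to 25712 in the other 14, and per the file header the authors left it out of their statistics. Without it the numbers of core genes called were 1 higher and 2 lower in ref6C against WT, and 1 higher and 4 lower in ref6C against ref6-3, as with it. The transcripts named in the genotypes were lower in them: REF6 averaged between 32.9 and 36.9 CPM in the mutants and 69.4 CPM in WT, and ELF6 averaged 2.53 CPM in the double mutant, 8.67 CPM in the triple mutant and 61.3 CPM in WT. AT5G46910, a jumonji-family gene by its deposited description and taken here as the gene meant by jmj13G, averaged 9.04 CPM in the triple mutant and 24.8 CPM in WT. It was also called lower against WT in the genotypes not named for jmj13G. The log2 fold changes were -0.21 (adjusted p = 4.5e-04) in ref6-3, -0.17 (adjusted p = 0.0026) in ref6C and -0.44 (adjusted p = 2.4e-09) in the double mutant. In the triple mutant the value was -1.45 against WT and -1.02 against the double mutant. All 5 floral organ identity genes looked at (AP1, AP3, PI, AG and SEP3) had counts in every library.

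The 10 transcripts spanned a wide range of abundance. In WT buds PRR7 was the most abundant per length, at 66.6 ± 0.46 FPKM (a level scaled to transcript length and library size, SD, n = 3). PRR5 followed at 41.3 ± 0.37 FPKM and TOC1 at 39.4 ± 0.87 FPKM. GI came next at 33.2 ± 0.19 FPKM, then ELF3 at 30.5 ± 1.2, LUX at 28.6 ± 0.7 and ELF4 at 27.3 ± 2.3 FPKM. CCA1 at 10.1 ± 0.46, PRR9 at 6.24 ± 0.31 and LHY at 3.9 ± 0.29 FPKM were the 3 lowest. Of the neighbours in this order, LUX and ELF4 overlapped between libraries, and the other pairs did not. Across the 5 genotype means, PRR9 spanned 1.90-fold, LHY 1.87-fold, ELF4 1.80-fold and CCA1 1.55-fold. The span of TOC1 was 1.25-fold and that of PRR7 1.18-fold, PRR5, LUX and ELF3 spanned 1.12-fold to 1.13-fold, and GI spanned 1.03-fold.

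**Figure D1:**
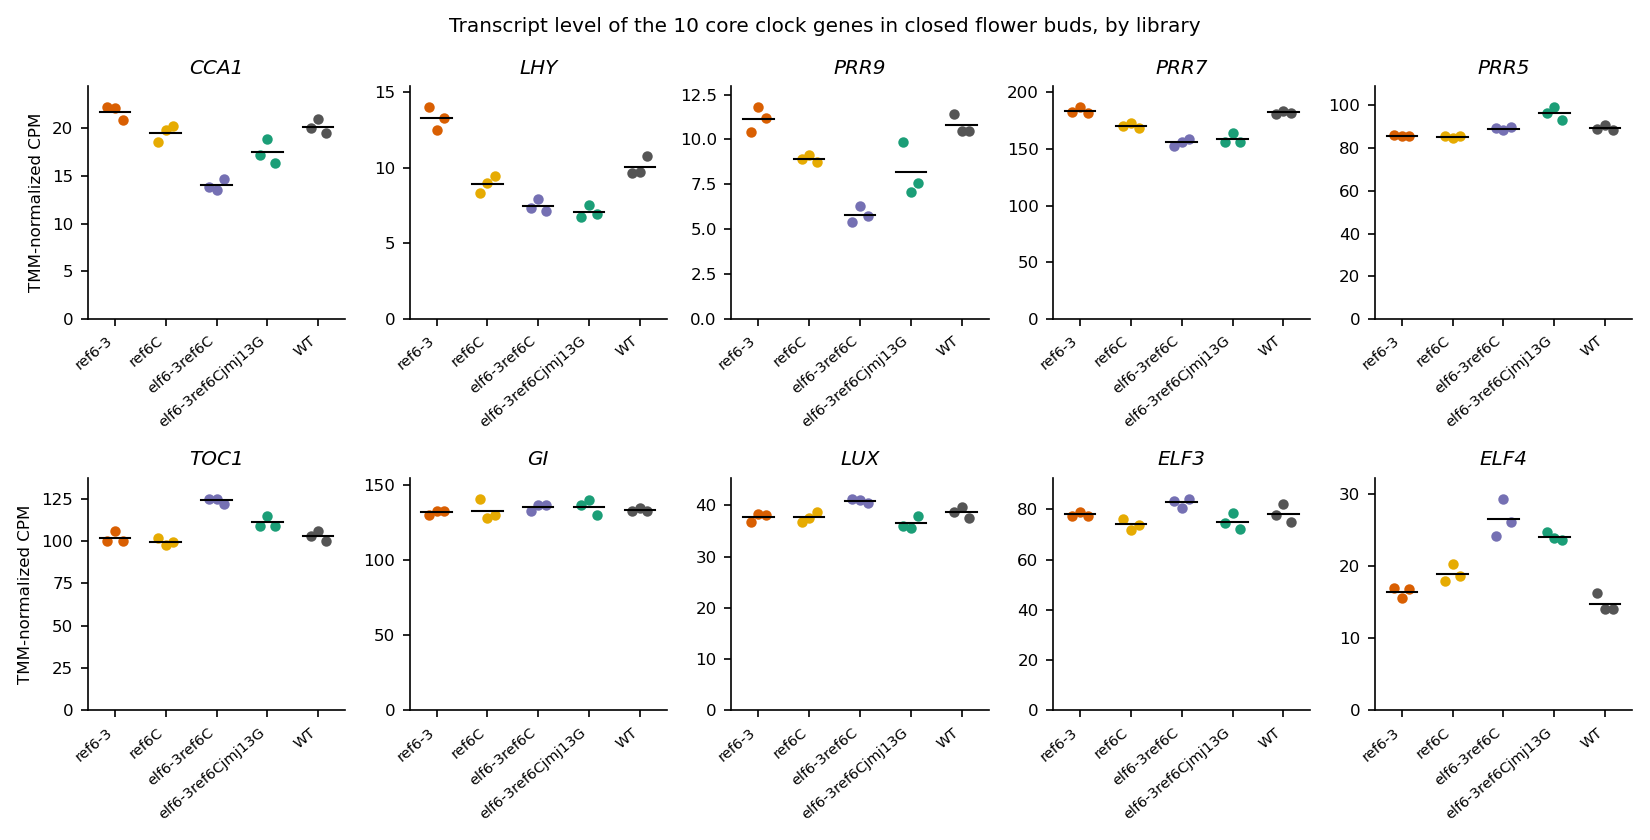
Transcript level of each core clock gene in TMM-normalized CPM (vertical axes, from 0, 1 scale per gene) in the 3 libraries of each genotype, with points for libraries and a bar for the mean. PRR9 and CCA1 are lowest and ELF4 and TOC1 highest in elf6-3ref6C, while GI stays between 128 and 141 CPM in all 15 libraries.

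In ref6-3 against WT, 1 core gene was called higher and none lower, where 34.7% of all tested genes were called, 16.2% higher and 18.5% lower. The ref6C buds had 1 higher and 2 lower, against a background of 18.4% higher and 20.4% lower, 38.8% in all. The double mutant had 2 higher and 4 lower, against a background of 33.7% higher and 34.8% lower, 68.5% in all. The triple mutant had 3 higher and 5 lower, against a background of 32.0% higher and 34.4% lower, 66.4% in all. The share of core genes called was below that background in the single mutants and the double mutant and above it in the triple mutant, and with 10 genes such counts say little about the clock itself. No core gene changed 2-fold in any comparison. The median absolute log2 fold change of the 10 was 0.04 in ref6-3, 0.08 in ref6C, 0.24 in the double mutant and 0.15 in the triple mutant, against 0.11, 0.12, 0.26 and 0.24 over all tested genes in the same comparisons. The 4 comparisons share the WT libraries.

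**Figure D2:**
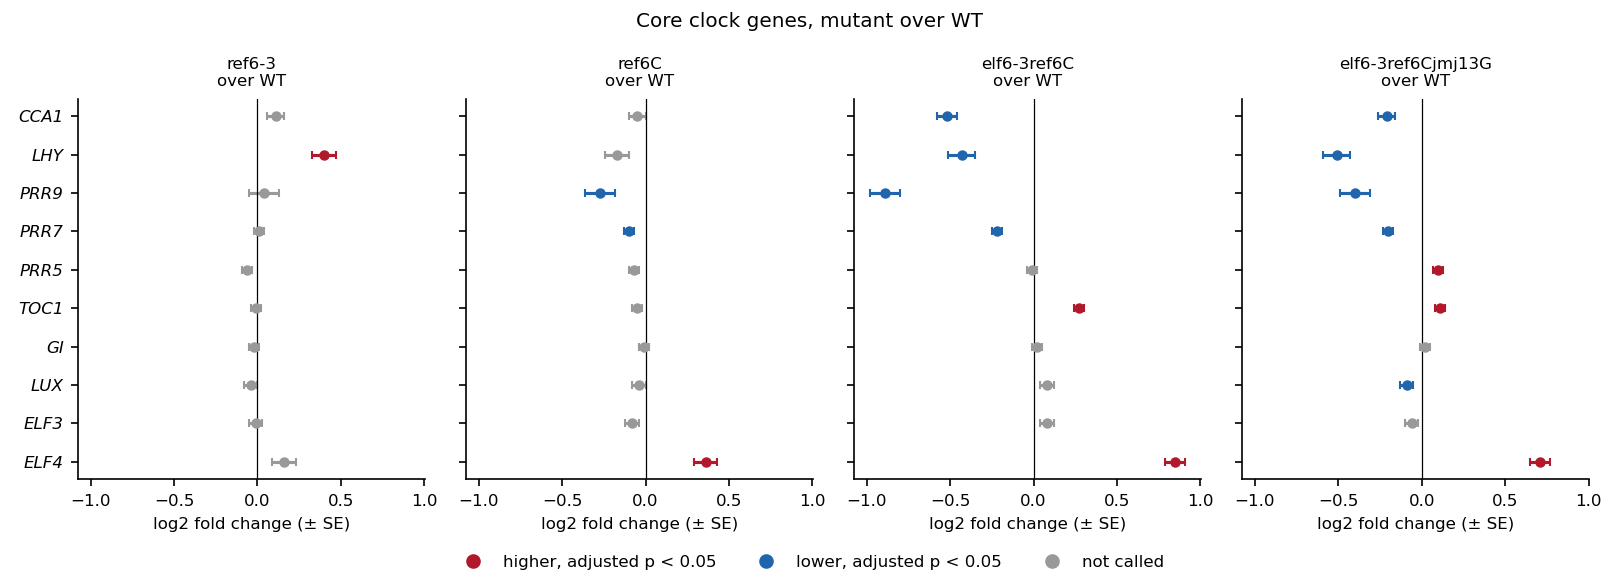
Log2 fold change over WT (horizontal axes, ± SE) of the 10 core clock genes in each mutant, coloured by whether the gene was called higher, called lower or not called. In elf6-3ref6C, PRR9 is at -0.89, CCA1 at -0.52, LHY at -0.43 and PRR7 at -0.22, while ELF4 is at 0.85 and TOC1 at 0.27.

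The dawn repressors CCA1 and LHY fell in the double and triple mutants, and LHY alone rose in ref6-3. CCA1 was at 13.8, 13.5 and 14.7 CPM in the double mutant, 17.2, 18.9 and 16.4 CPM in the triple mutant, and 20, 21 and 19.5 CPM in WT. All double and triple mutant libraries lay below all WT libraries. Against WT the log2 fold change of CCA1 was -0.52 ± 0.06 (SE, adjusted p = 5.7e-09) in the double mutant and -0.21 ± 0.05 (adjusted p = 0.0014) in the triple mutant. In the single mutants CCA1 was not called, with adjusted p = 0.12 in ref6-3 and 0.48 in ref6C, and those libraries overlapped with WT.

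LHY differed between the single mutants. It was at 14, 12.5 and 13.3 CPM in ref6-3, 8.35, 8.99 and 9.42 CPM in ref6C, and 9.68, 9.71 and 10.8 CPM in WT. Every ref6-3 library was above every WT library, and every ref6C library below. The rise in ref6-3 was called, at a log2 fold change of 0.40 ± 0.07 (adjusted p = 4.2e-05), and the value in ref6C, -0.17 ± 0.07, was not (adjusted p = 0.062). LHY was at 7.34, 7.92 and 7.13 CPM in the double mutant and 6.71, 7.52 and 6.96 CPM in the triple mutant, below every library of the other 3 genotypes. Its log2 fold changes against WT were -0.43 ± 0.08 (adjusted p = 1.5e-05) in the double mutant and -0.51 ± 0.08 (adjusted p = 1.3e-06) in the triple mutant.

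Among the daytime pseudo-response regulators, PRR9 showed the largest fall of any core gene. PRR9 was at 5.43, 6.28 and 5.74 CPM in the double mutant, against 11.4, 10.5 and 10.5 CPM in WT, a log2 fold change of -0.89 ± 0.09 (adjusted p = 4.0e-09). The double mutant libraries lay far below WT, with no overlap. In the triple mutant it was at 9.85, 7.08 and 7.59 CPM, and the log2 fold change was -0.40 ± 0.09 (adjusted p = 3.0e-04). Replicate 1 of the triple mutant stood above the other 2 libraries, and without it the value was -0.55. In ref6C PRR9 was at 8.89, 9.12 and 8.76 CPM, a log2 fold change of -0.27 ± 0.09 (adjusted p = 0.015). This ref6C call ended without WT replicate 1, at an adjusted p of 0.065, and with limma on log2(FPKM + 0.1), at 0.055. In ref6-3 PRR9 was at 10.4, 11.8 and 11.2 CPM, overlapped with WT and was not called (log2 fold change 0.04, adjusted p = 0.75).

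PRR7, the most abundant of the family, fell by less but with little spread. It was at 170, 173 and 169 CPM in ref6C, 153, 156 and 159 CPM in the double mutant, 156, 164 and 156 CPM in the triple mutant, and 181, 184 and 182 CPM in WT. All libraries of these 3 mutants lay below WT. The log2 fold changes were -0.10 ± 0.03 (adjusted p = 0.005), -0.22 ± 0.03 (adjusted p = 3.4e-08) and -0.20 ± 0.03 (adjusted p = 1.6e-07) in that order. In ref6-3 PRR7 was not called (0.01 ± 0.03, adjusted p = 0.74). PRR5 was not called lower against WT in any mutant. It was at 96.5, 99.2 and 93.4 CPM in the triple mutant, against 89, 91 and 88.6 CPM in WT, a rise of 0.10 ± 0.03 on the log2 scale (adjusted p = 0.0016). It was not called in the other 3 mutants, where its log2 fold changes lay between -0.07 and -0.01. All libraries of ref6-3 (86.2, 85.5 and 85.7 CPM) and ref6C (85.6, 84.7 and 85.8 CPM) nevertheless lay below WT. In ref6C the adjusted p was 0.052. Limma on log2(FPKM + 0.1) (0.021), a filter of 1 CPM in 3 libraries (0.046) and 2 of the 15 fits that left out a library called it lower there.

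TOC1, the evening repressor of CCA1 and LHY, was called higher against WT in the double and triple mutants, where both of those genes were called lower. It was at 125, 125 and 122 CPM in the double mutant, 109, 115 and 109 CPM in the triple mutant, and 103, 106 and 100 CPM in WT. The double mutant libraries stood well above WT and the triple mutant libraries just above it, with no overlap. The log2 fold changes were 0.27 ± 0.03 (adjusted p = 1.3e-08) in the double mutant and 0.11 ± 0.03 (adjusted p = 0.0031) in the triple mutant. TOC1 was not called in ref6-3 (-0.01, adjusted p = 0.83) or in ref6C (-0.05, adjusted p = 0.24).

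Of the evening complex, ELF4 rose in 3 of the 4 mutants, ELF3 was called in none, and LUX was called lower in 1. ELF4 was at 17.9, 20.2 and 18.6 CPM in ref6C, 24.2, 29.3 and 26.1 CPM in the double mutant, 24.7, 23.8 and 23.6 CPM in the triple mutant, and 16.2, 14 and 14 CPM in WT. Every library of these 3 mutants was above every WT library. The log2 fold changes were 0.36 ± 0.07 (adjusted p = 1.0e-04) in ref6C, 0.85 ± 0.06 (adjusted p = 3.9e-12) in the double mutant and 0.71 ± 0.06 (adjusted p = 2.2e-10) in the triple mutant. ELF4 in ref6-3, at 16.9, 15.6 and 16.8 CPM, overlapped with WT and was not called (0.16 ± 0.07, adjusted p = 0.08). WT replicate 1 was the highest WT library for ELF4, and without it ELF4 in ref6-3 was called (log2 fold change 0.23, adjusted p = 0.018).

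ELF3, the scaffold of the complex, was not called in any mutant against WT, with log2 fold changes between -0.08 and 0.08. In the double mutant it lay at the limit (0.08, adjusted p = 0.05). There it was called higher in 6 of the 15 fits that left out a library. It was also called with relative log expression size factors (0.045) and with only the 2 groups compared (0.043). In ref6C and in the triple mutant, 2 of those 15 fits each called it lower. LUX, its DNA-binding subunit, was called only in the triple mutant, at 36, 35.5 and 37.9 CPM against 38.8, 39.7 and 37.5 CPM in WT. These groups overlapped, the log2 fold change was -0.09 ± 0.04 (adjusted p = 0.044), and the call was lost in 15 of the 22 alternative analyses, among them DESeq2 (0.15) and 9 of the 15 fits that left out a library. In the double mutant LUX, at 41.3, 41.1 and 40.4 CPM, lay above every WT library but was not called (0.08, adjusted p = 0.056). It was called higher there with relative log expression size factors (0.048) and in 2 of the 15 fits that left out a library. LUX shares 1507 bases with AT3G46650 on the opposite strand, and ELF3 overlaps AT2G08135 and AT2G25940 there by 183 and 24 bases. The kit marks strand, but the sources used here do not say whether counting used it, so reads of these genes and their partners may not be told apart.

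GI, the link to flowering time, was not called in any of the 7 comparisons. It was at 130, 133 and 133 CPM in ref6-3, 141, 128 and 130 CPM in ref6C, 133, 137 and 137 CPM in the double mutant, 137, 140 and 130 CPM in the triple mutant, and 133, 135 and 133 CPM in WT. The libraries of each mutant overlapped with those of WT. In the double mutant the log2 fold change against WT was 0.02, with a 95% interval of -0.04 to 0.08, and in the triple mutant it was 0.02, with an interval of -0.04 to 0.09.

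The authors' deposited table, whose log2 fold changes run WT over mutant and were turned here, has adjusted p below 0.05 for 1 core gene higher and none lower with ref6-3, and 1 of each with ref6C. It has 2 higher and 4 lower for the double mutant, and 3 higher and 4 lower for the triple mutant in the authors' deposited table. The calls it lacks are PRR9 in ref6C, at an adjusted p of 0.12 in the authors' deposited table, and LUX in the triple mutant, at 0.22 there. The authors' ref6C values rest on 2 libraries, since they left out replicate 3, and those given here on 3, so the ref6C values are not from the same libraries.

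The mutants were also compared with each other. In ref6C against ref6-3, 1 core gene was higher and 4 were lower, with 33.9% of all tested genes called, 17.2% higher and 16.8% lower. LHY was lower in ref6C by the widest margin (log2 fold change -0.57 ± 0.07, adjusted p = 2.7e-07), followed by PRR9 (-0.32 ± 0.09, adjusted p = 0.0066). PRR7 was also lower in ref6C (-0.11 ± 0.03, adjusted p = 0.0019), and TOC1 was not called (-0.04, adjusted p = 0.39). CCA1 was called lower (-0.16 ± 0.05, adjusted p = 0.024) and ELF4 higher (0.20 ± 0.07, adjusted p = 0.022), but both calls ended in other analyses. That of CCA1 ended with DESeq2 (0.055), with limma (0.07) and without ref6-3 replicate 1 (0.088), ref6-3 replicate 2 (0.08) or ref6C replicate 1 (0.12). That of ELF4 ended with limma (0.054) and without ref6-3 replicate 2 (0.11) or ref6C replicate 2 (0.14).

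Where elf6-3 was present on top of ref6C, 4 core genes were higher and 4 lower, with 61.2% of all genes called, 30.7% higher and 30.6% lower. In the double mutant against ref6C, PRR9 was at -0.62 ± 0.10 (adjusted p = 4.9e-06), CCA1 at -0.47 ± 0.06 (adjusted p = 6.4e-08), LHY at -0.26 ± 0.08 (adjusted p = 0.0055) and PRR7 at -0.13 ± 0.03 (adjusted p = 2.0e-04) on the log2 scale. The genes that rose were ELF4 (0.49 ± 0.06, adjusted p = 1.2e-07), TOC1 (0.32 ± 0.03, adjusted p = 1.0e-09), ELF3 (0.16 ± 0.04, adjusted p = 3.2e-04) and LUX (0.12 ± 0.04, adjusted p = 0.0075). ELF3 was at 83.4, 80.5 and 84.2 CPM in the double mutant, against 76.3, 71.8 and 73.9 CPM in ref6C. LUX was at 41.3, 41.1 and 40.4 CPM in the double mutant, against 36.8, 37.6 and 38.7 CPM in ref6C, and neither gene overlapped between the groups. In this comparison the dawn and daytime repressors fell, apart from PRR5, which was not called, and TOC1 and the 3 evening complex genes rose.

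CCA1, PRR9 and TOC1 lay closer to WT in the triple mutant than in the double mutant. In the triple mutant against the double mutant, 3 core genes were higher and 3 lower, with 20.0% of all genes called, 8.58% higher and 11.4% lower. PRR9 was higher in the triple mutant (0.49 ± 0.10, adjusted p = 5.5e-04, and 0.34 without its replicate 1), as were CCA1 (0.32 ± 0.06, adjusted p = 2.1e-04) and PRR5 (0.11 ± 0.03, adjusted p = 0.0048). TOC1 (-0.16 ± 0.03, adjusted p = 2.7e-04), LUX (-0.16 ± 0.04, adjusted p = 0.0017) and ELF3 (-0.14 ± 0.04, adjusted p = 0.0044) were lower. LHY (-0.08, adjusted p = 0.56), PRR7 (0.02, adjusted p = 0.69) and ELF4 (-0.14, adjusted p = 0.09) were not called. The mean of LHY in the triple mutant was no closer to WT than that of the double mutant. ELF6, named in both genotypes, was itself higher in the triple mutant than in the double mutant (1.76, adjusted p = 3.2e-13). The part of this in the core gene differences was not tested.

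**Figure D3:**
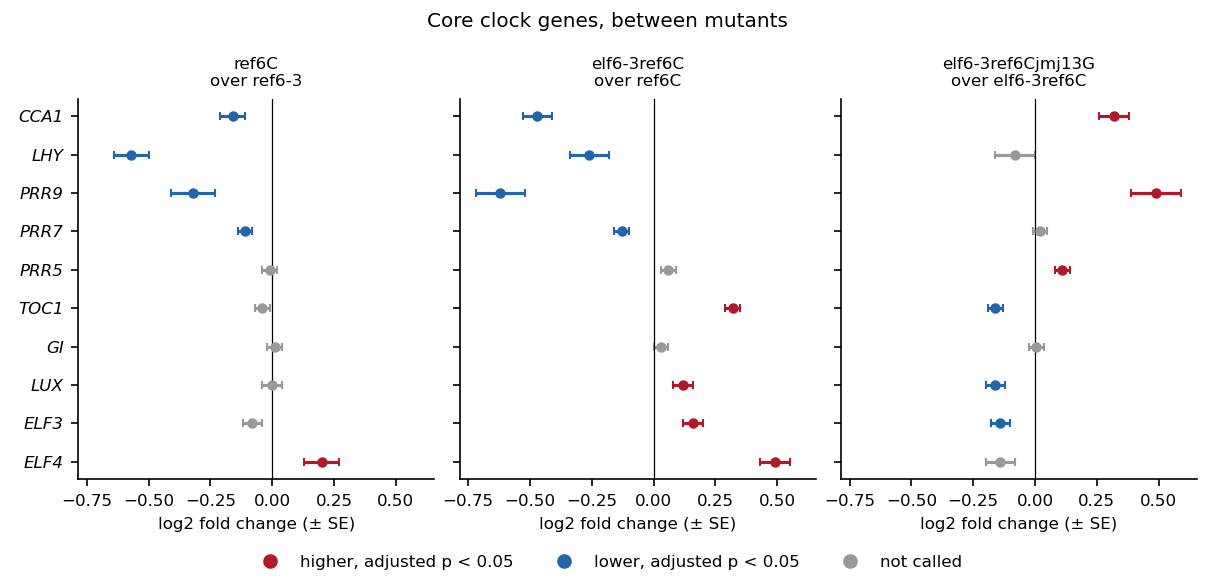
Log2 fold change (horizontal axes, ± SE) of the 10 core clock genes between mutants, the first-named genotype over the second, coloured by call. CCA1 and PRR9 are lower in elf6-3ref6C than in ref6C (-0.47 and -0.62) and higher in elf6-3ref6Cjmj13G than in elf6-3ref6C (0.32 and 0.49), and TOC1 runs the other way (0.32 and -0.16).

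Differences taken inside 1 library do not depend on the scaling between libraries. The log2-CPM of CCA1 minus that of TOC1 was -3.18, -3.20 and -3.05 in the double mutant, -2.66, -2.59 and -2.73 in the triple mutant, and -2.36, -2.33 and -2.36 in WT. Those 3 genotypes did not overlap. In ref6C, at -2.45, -2.30 and -2.30, the values overlapped with WT, and in ref6-3, at -2.16, -2.26 and -2.26, they lay above it. LHY minus TOC1 was -4.08, -3.96 and -4.08 in the double mutant and overlapped with the triple mutant, at -4.01, -3.92 and -3.96. Both lay below WT, at -3.40, -3.44 and -3.20, which overlapped with ref6C, at -3.59, -3.43 and -3.39. In ref6-3 the values were -2.83, -3.08 and -2.90. For PRR9 minus ELF4 the values were -2.15, -2.21 and -2.17 in the double mutant, -1.32, -1.74 and -1.63 in the triple mutant, an average of -1.08 ± 0.07 (SD, n = 3) in ref6C, and -0.50, -0.41 and -0.42 in WT. These 4 genotypes did not overlap, and ref6-3, at -0.70, -0.41 and -0.59, reached into the WT range. PRR9 had the largest fall and ELF4 the largest rise of the core genes in the double mutant. A wide difference for this pair therefore follows from its choice. CCA1 minus LHY, the gap between the dawn partners, was 0.67, 0.82 and 0.65 in ref6-3 and 1.35, 1.32 and 1.23 in the triple mutant, against 1.04, 1.11 and 0.84 in WT. It was narrower in ref6-3 and wider in the triple mutant, without overlap with WT. No test was run on these differences.

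**Figure D4:**
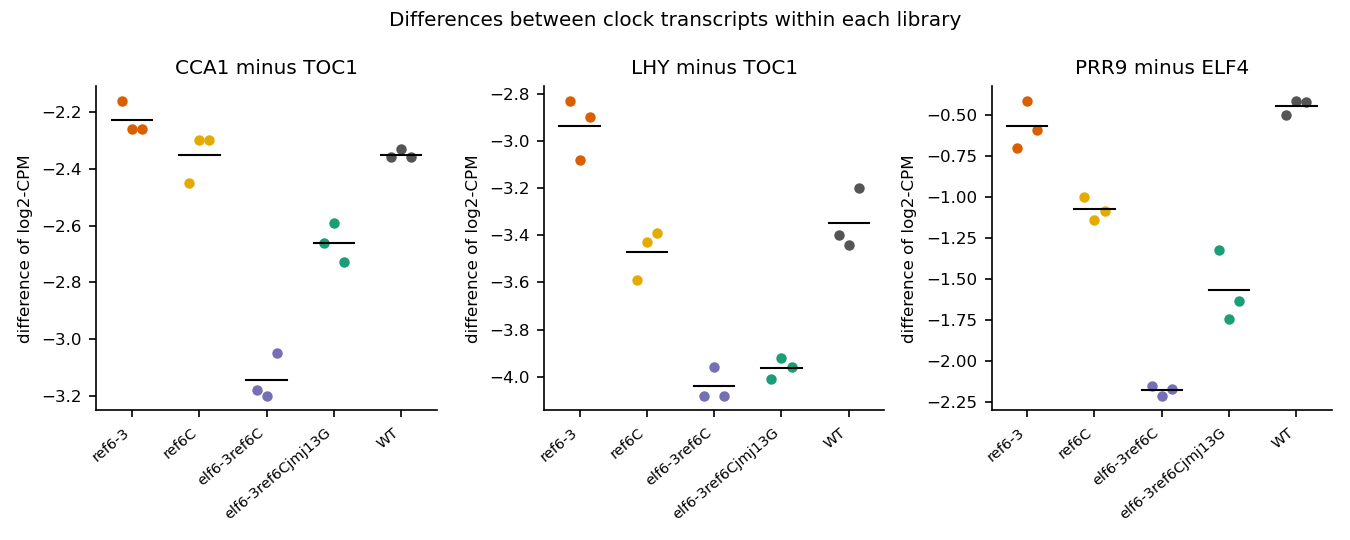
Difference of log2-CPM between 2 clock transcripts of the same library (vertical axes, each with its own range that does not start at 0), with points for libraries and a bar for the mean of 3. The mean of CCA1 minus TOC1 is -3.14 in elf6-3ref6C, -2.66 in elf6-3ref6Cjmj13G and -2.35 in WT, and that of PRR9 minus ELF4 is -2.18, -1.56 and -0.44 in the same genotypes.

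Genes that work beside the core were described in 4 lists. The Reveille factors are MYB-related relatives of CCA1 and LHY, several of which activate evening genes, and the LNK proteins are their coactivators. None of these 12 genes was called in ref6-3, while ref6C had 2 higher and 6 lower. Without ref6C replicate 3 or without WT replicate 2, the number higher in ref6C was 1. The double mutant had 1 higher and 8 lower, and the triple mutant 1 higher and 7 lower. The called share was thus 0% in ref6-3 and 66.7% in ref6C, against 34.7% and 38.8% of all tested genes, and 75% in the double and 66.7% in the triple mutant, close to the 68.5% and 66.4% of all tested genes. Their median log2 fold change was 0.04, -0.10, -0.22 and -0.18 in that order, against 0.0038, 0.0018, -0.0031 and -0.01 over all tested genes. LNK4 fell to 7.36 ± 0.33 CPM in the double mutant, against 12.8 ± 1 CPM in WT (SD, n = 3 each), a log2 fold change of -0.79 (adjusted p = 1.1e-10). LNK3 (-0.49, adjusted p = 1.3e-08) and LNK2 (-0.39, adjusted p = 4.0e-12) fell there too. RVE1, which links the clock to auxin, fell most in ref6C (-0.91, adjusted p = 3.7e-09). RVE2 went against the group in the double mutant, at 8.95 ± 0.82 CPM, against 6.09 ± 0.78 CPM in WT (0.56, adjusted p = 4.3e-06).

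Among 24 other clock regulators, ref6-3 had 3 higher and 2 lower and ref6C had 5 higher and 3 lower, or 20.8% and 33.3% called, against 34.7% and 38.8% of all tested genes. The double mutant had 12 higher and 6 lower, and the triple mutant 12 higher and 5 lower, or 75% and 70.8% called, near the 68.5% and 66.4% of all tested genes. The relatives of the core genes did not follow them as one. PRR3, which stabilises TOC1 protein, rose in ref6C (0.45, adjusted p = 5.9e-10), the double mutant (0.50, adjusted p = 1.7e-11) and the triple mutant (0.60, adjusted p = 3.4e-13), while its relatives PRR9 and PRR7 fell. EFL3, an ELF4-like gene, fell to 5.44 ± 0.28 CPM in the double mutant and 5.98 ± 0.02 CPM in the triple mutant, against 12.8 ± 1.1 CPM in WT (SD, n = 3 each), while ELF4 rose in both mutants. Its log2 fold changes were -1.23 (adjusted p = 5.2e-14) and -1.09 (adjusted p = 4.3e-13). EFL3 was also called lower in ref6-3 (-0.40, adjusted p = 3.8e-05) and in ref6C (-0.40, adjusted p = 3.6e-05). BOA, the close relative of LUX, fell in ref6-3 (-0.58, adjusted p = 3.4e-07), the double mutant (-0.43, adjusted p = 6.5e-06) and the triple mutant (-0.39, adjusted p = 2.1e-05) but rose in ref6C (0.22, adjusted p = 0.011). BOA shares 1896 bases with AT5G59580 on the opposite strand, so the strand limit given for LUX holds for it too.

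CHE, a TCP factor that represses CCA1, also took opposite directions in the single mutants. It averaged 30.6 ± 0.53 CPM in ref6-3 and 19.7 ± 0.63 CPM in ref6C, against 24.6 ± 0.53 CPM in WT (SD, n = 3 each), with no overlap. The difference between them, ref6C over ref6-3, was -0.64 on the log2 scale (adjusted p = 1.2e-12). PRMT5, an arginine methyltransferase needed for the splicing of PRR9 transcripts, averaged 111 ± 2.3 CPM in the double mutant and 110 ± 1.2 CPM in the triple mutant, against 58.7 ± 1 CPM in WT. Its log2 fold changes were 0.92 (adjusted p = 1.2e-20) and 0.90 (adjusted p = 2.3e-20), and it was not called in ref6-3 (adjusted p = 0.098) or ref6C (adjusted p = 0.13).

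Calls among the 17 output genes went both ways: ref6-3 had 6 higher and 4 lower, ref6C 4 higher and 6 lower, the double mutant 3 higher and 6 lower, and the triple mutant 3 higher and 3 lower. The called share was 58.8% in each single mutant, above the 34.7% and 38.8% of all tested genes, and 52.9% in the double and 35.3% in the triple mutant, below the 68.5% and 66.4% of all tested genes. The RNA-binding protein gene GRP7, whose transcript peaks in the evening, rose in all 4 mutants, by 0.12 (adjusted p = 0.002) in ref6-3, 0.26 (adjusted p = 2.1e-08) in ref6C, 0.55 (adjusted p = 1.3e-15) in the double mutant and 0.48 (adjusted p = 2.2e-14) in the triple mutant on the log2 scale. The catalase genes parted: CAT3 rose by 0.53 (adjusted p = 1.8e-15) in the double mutant, whereas CAT2 fell by 0.51 (adjusted p = 4.2e-14) there. CDF1, a repressor of the flowering gene CO, was at 0.935 ± 0.24 CPM in the double mutant, against 2.69 ± 0.28 CPM in WT (-1.53, adjusted p = 1.4e-08). CDF1 was also called lower in ref6-3 (-0.99, adjusted p = 2.0e-05), ref6C (-0.76, adjusted p = 3.4e-04) and the triple mutant (-0.80, adjusted p = 6.7e-05). CO itself was not called in any mutant against WT, with adjusted p between 0.18 and 0.57, and it shares 1967 bases with AT5G15843 on the opposite strand, with the same limit. RVE1, LNK2, LNK3, PRMT5 and CAT2 overlap genes of the opposite strand by 5 to 266 bases each. The 7 light input genes gave 2 higher and 1 lower in ref6-3, 2 of each in ref6C, 3 higher and 1 lower in the double mutant, and 3 higher and 2 lower in the triple mutant. These are 42.9%, 57.1%, 57.1% and 71.4% called, in that order, against 34.7%, 38.8%, 68.5% and 66.4% of all tested genes, and with 7 genes 1 call moves the share widely. PIF3, a phytochrome-interacting factor, rose by 0.54 (adjusted p = 1.2e-08) in the double mutant and 0.65 (adjusted p = 1.8e-10) in the triple mutant.

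**Figure D5:**
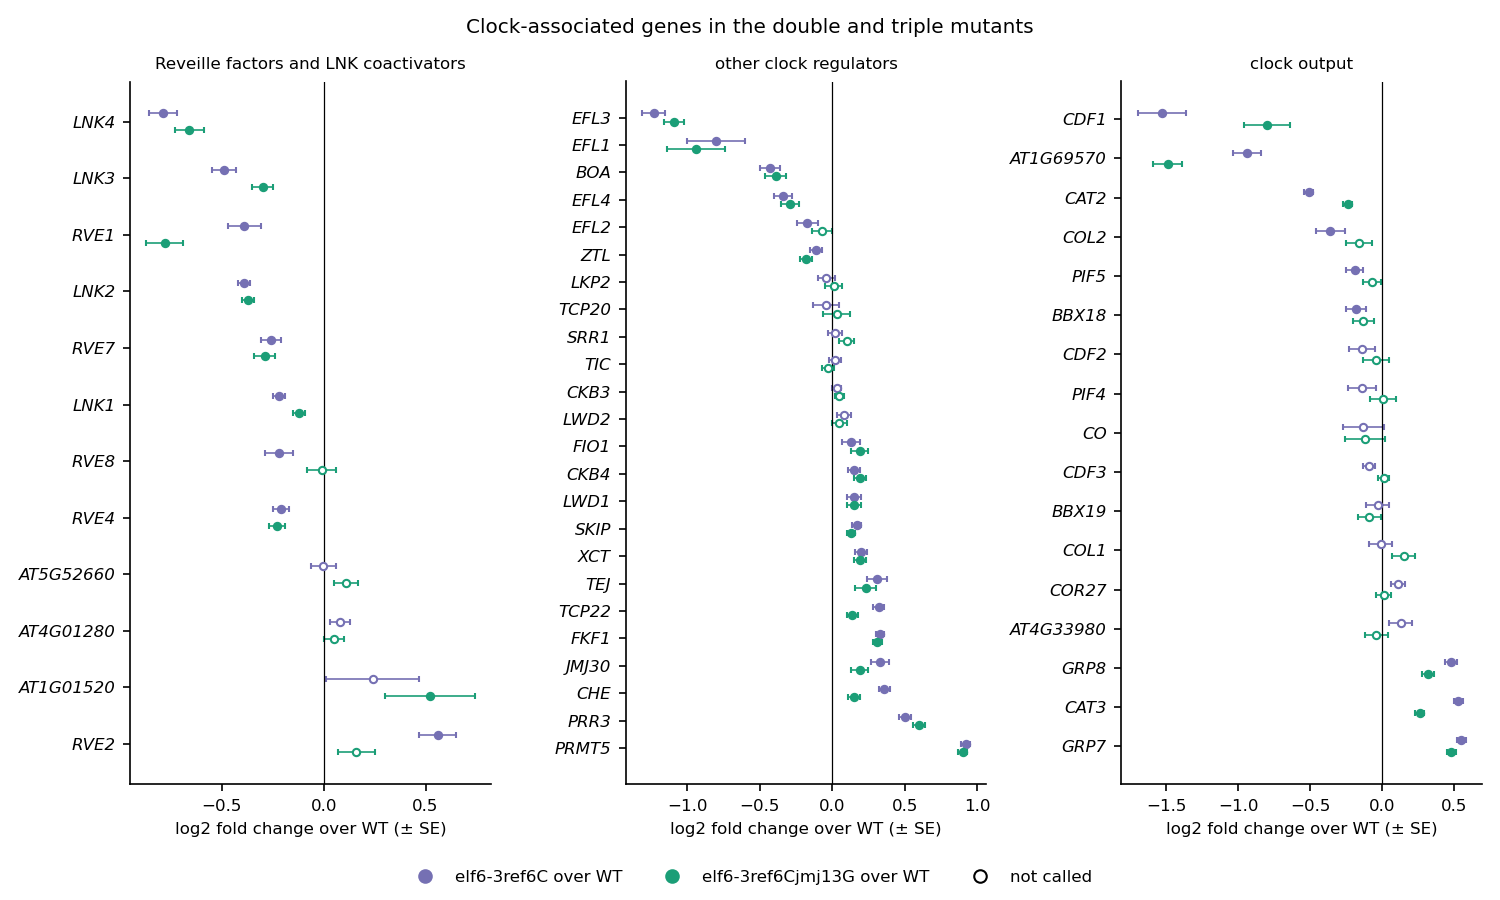
Log2 fold change over WT (horizontal axes, ± SE) of clock-associated genes in elf6-3ref6C and elf6-3ref6Cjmj13G, in 3 lists, with filled points for called genes and open points for genes not called. All 4 LNK genes are lower in both mutants, EFL3 is at -1.23 and -1.09, and PRMT5 is at 0.92 and 0.90.

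The genes whose levels ran most like the 3 core genes of widest span were looked up over the 15 libraries among 18426 nuclear genes, as a description. Nearest to PRR9 were ML5 (r = 0.96), GLTP3 (r = 0.96) and AT2G20970 (r = 0.95). Nearest to LHY were AT3G20450 (r = 0.98), HHP3 (r = 0.97) and LHCA3 (r = 0.97), and LHCA3 encodes a light-harvesting protein of photosystem I. Nearest to ELF4 were AT3G61370 (r = 0.98), the output gene GRP7 (r = 0.98) and TIM10 (r = 0.97). The 15 libraries form 5 genotypes, so such values largely reflect the genotype means.

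The summed levels of tissue markers also differed between genotypes. The summed level of 6 green tissue markers lay between 10400 and 10700 CPM in ref6-3, 9500 and 9830 in ref6C, 8350 and 8410 in the double mutant, 7670 and 8120 in the triple mutant, and 9020 and 9800 in WT. It was highest in ref6-3 and lowest in the triple mutant, and in ref6C it overlapped with WT. The mean of LHY was also highest in ref6-3 and lowest in the triple mutant. Its ref6C libraries lay below WT, and its double and triple mutant libraries overlapped. Of the 6 green markers, 6 were called higher in ref6-3, 2 higher and 2 lower in ref6C, 2 higher and 4 lower in the double mutant, and 1 higher and 5 lower in the triple mutant, against WT. The 5 floral organ identity genes summed to 869 to 889 CPM in ref6-3, 941 to 957 in ref6C, 788 to 810 in the double mutant, 692 to 706 in the triple mutant, and 932 to 938 in WT. Against WT, 4 of these 5 were called lower and 1 higher in ref6-3 and in the triple mutant, 2 lower and 1 higher in ref6C, and 4 lower and none higher in the double mutant. The summed level of 6 mature pollen markers was 168 to 178 CPM in ref6-3, 485 to 508 in ref6C, 130 to 135 in the double mutant, 194 to 201 in the triple mutant, and 606 to 636 in WT. The 6 tapetum markers summed to 992 to 1010 CPM in ref6-3, 642 to 663 in ref6C, 558 to 574 in the double mutant, 546 to 552 in the triple mutant, and 986 to 1020 in WT. No marker was at 0 in all libraries of a genotype. In whole buds, fewer cells of a type and less RNA per cell cannot be told apart, and the part of tissue composition in the clock differences was not tested.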

How the data were processed

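The members and gene lists were chosen with earlier results of these data known. The authors deposited 1 table of whole-number counts per gene and library without normalization, FPKM values (RSEM, per the file headers), and their own log2 fold changes with p-values for each mutant against WT. Per the submitters' processing notes the tools include RSEM 1.2.22, STAR and DESeq2 with build TAIR10, without roles. The sources used here do not state how strand was used.

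All 15 libraries entered 1 fit in edgeR 4.0.16 under R 4.3.3, with TMM scaling, filterByExpr by genotype and the quasi-likelihood test. The design assumed estimated counts that need rounding, but the deposited ones were already whole. There were 7 comparisons, the 4 mutants with WT and ref6C with ref6-3, the double mutant with ref6C, and the triple with the double mutant. Each SE came from the log2 fold change and its F value. Replicate pairs differed by 1.39 to 2.74 times Poisson sampling, so each library was counted once. The procedure was tested on simulated data. Alternatives were other size factors, DESeq2 1.42.0, other filters, only the compared groups, limma 3.58.1 on log2(FPKM + 0.1), a replicate block and leaving out each library.

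Named beside the core genes were up to 4 called members per list and comparison with the largest absolute log2 fold change, and the 3 genes most correlated with each of the 3 core genes of widest span. LNK2, BOA, GRP7 and CAT2 are also given in comparisons outside that rule, chosen after their values were seen. Sequences are from the RefSeq TAIR10.1 genome. The upstream window of 1 core gene is not reported here.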

Additional observations from a re-analysis of the deposited data

How the results depend on the processing

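Of the 37 called differences of core genes (10 genes in 7 comparisons), 33 kept direction and call under all 22 alternatives, 4 lost the call under at least 1 and none reversed. Of the 33 not called, 8 were called under at least 1 alternative. The 4 lost calls are given in the text above; the cause was not tested. Core genes higher in ref6-3 against WT were 2 with no filter, those higher in elf6-3ref6C against WT were 4 with relative log expression size factors (ELF3 and LUX were added), and those higher in ref6C against ref6-3 were 0 with limma. Reveille and LNK genes higher were 2 in ref6-3 with relative log expression size factors, and with DESeq2 1 in ref6C, 0 in elf6-3ref6Cjmj13G, 1 in ref6C against ref6-3 and 1 in the triple against the double mutant. Output genes higher in ref6C against ref6-3 were 2 with DESeq2, and other regulators higher in the triple against the double mutant were 1 with only the 2 groups. Light input genes lower in ref6-3 were 0 with no filter. Those higher in ref6C were 0 with DESeq2 and 1 with no filter, with only the 2 groups or with limma. Those lower in elf6-3ref6C were 0 with DESeq2, no filter or only the 2 groups and 2 with limma, and those lower in the triple against the double mutant were 1 with no filter. All genes lower in the triple against the double mutant were 1653 with limma. Leaving out 1 library gave core counts of 1 to 2 (higher, ref6-3), 1 to 3 (lower, ref6C), 2 to 4 (higher, elf6-3ref6C) and 0 to 1 (higher, ref6C against ref6-3). For Reveille and LNK genes higher it gave 0 to 2 in ref6-3, 1 to 2 in ref6C, 0 to 2 in the triple mutant, 0 to 2 in ref6C against ref6-3 and 0 to 3 in the triple against the double mutant. Other regulators were 2 to 5 (lower, ref6C), 3 to 5 (lower, ref6C against ref6-3) and 0 to 1 (higher, triple against double). Output genes were 3 to 5 (lower, triple mutant), 2 to 4 (higher, ref6C against ref6-3) and 1 to 3 (higher, triple against double). Light input genes were 1 to 2 higher and 0 to 1 lower in ref6-3, 0 to 3 higher in ref6C, 0 to 1 lower in elf6-3ref6C and 1 to 2 lower in the triple against the double mutant. All log2 fold changes that turned sign were near 0 and not called. ELF3 in ref6-3 was 0.00049 with DESeq2 and 0.001 with no filter, GI in elf6-3ref6C was -0.02 with limma, and GI and LUX in ref6C against ref6-3 were -0.0024 with no filter and 0.00051 with 1 CPM in 3 libraries. REF6 in elf6-3ref6C against ref6C was -0.0046 with limma. Over the fits that each left out 1 library, the ranges of these and the other sign changes were -0.04 to 0.01 for TOC1, -0.002 to 0.09 for PRR9, -0.04 to 0.03 for ELF3 and -0.05 to 0.0013 for ELF6 in ref6-3, and -0.05 to 0.02 for GI in ref6C and -0.01 to 0.01 for PRR5 in elf6-3ref6C, all against WT. They were -0.03 to 0.04 for GI and -0.03 to 0.01 for LUX in ref6C against ref6-3, and -0.03 to 0.05 for REF6 in elf6-3ref6C against ref6C. In the triple against the double mutant they were -0.0047 to 0.03 for PRR7, -0.02 to 0.03 for GI and -0.06 to 0.02 for REF6. The labels do not say what a replicate number marks. Of 30 same-numbered pairs of libraries from different genotypes, 1 had a correlation of deviations over 0.1 (range -0.275 to 0.231). Pairs with different numbers ranged from -0.193 to 0.212, and a block by number does not take up links of that kind. A replicate block ended the LUX call in the triple mutant (adjusted p = 0.053) and changed no other core gene's call. Counts per library were as low as 139 for PRR9 and 188 for LHY, against 3932 or more for PRR7, and the SE in ref6C against WT was 0.09 for PRR9 and 0.03 for PRR7.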
